A study of Saccharomyces cerevisiae with 15 samples.

Results

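Yeast lacking the SAGA subunit Spt8 and exposed to sulfometuron methyl (SM) was compared with untreated wild-type yeast, gene by gene. The comparison takes 6 of the 15 RNA-seq libraries deposited, and all 6692 yeast features of the count table, of which 6564 had enough counts to be tested. The untreated group is BY4741 (WT), a laboratory strain of mating type a with the genotype MATa his3∆1 leu2∆ met15∆ ura3∆, grown without SM (n = 3). The other group has the same background with the SPT8 gene replaced by a drug marker (spt8∆::kanMX4), given SM at 1 µg/ml for 25 min (n = 3). All cultures grew at 30 °C to an OD600 between 0.6 and 0.8 in synthetic complete medium without isoleucine and valine. WT with SM (n = 3) was set beside these wherever a level had to be placed between them. A strain labelled as lacking Spt3 (spt3∆), given SM at the same dose and time (n = 3), is cited for a few stress genes. A strain labelled as lacking Gcn5 (gcn5∆), also given SM at that dose and time (n = 3), entered only the shared fit. The WT and spt3∆ libraries carry the library set name 1 and the spt8∆ and gcn5∆ libraries the set name 2. An spt8∆ culture without SM was not analysed here. Strain, drug and library set therefore cannot be told apart in any difference between the 2 groups compared. The labels do not say whether the 3 libraries of a group came from separate cultures, so the p-values cover only variation among the libraries at hand, which may be technical.

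SM blocks acetolactate synthase, an early enzyme of isoleucine and valine synthesis. Yeast starved of an amino acid activates the kinase Gcn2, which raises translation of the transcription factor Gcn4, and Gcn4 then activates genes of most amino acid pathways. SAGA is a coactivator complex brought to promoters by such activators. Its subunits Spt3 and Spt8 act in delivering the TATA-binding protein (TBP) to promoters, while Gcn5 is its histone acetyltransferase. Genes with a canonical TATA box, many of them stress genes, are known for a strong need of SAGA.

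Depth was high, at 34.9 to 45.7 M yeast counts per library. Synthetic ERCC spike-in RNAs, added per amount of total RNA, made up 1.35% to 1.64% of the deposited counts of a library. All spike-in values are even in every library, and the files do not say whether spike-ins were counted as reads or as pairs. Counts were divided by a factor computed from the spike-ins, and the results are given below as scaled counts. By this scale 4231 genes (64.5% of those tested) were higher in spt8∆ with SM than in untreated WT and 547 (8.33%) were lower, by edgeR's quasi-likelihood test at a Benjamini-Hochberg (BH) adjusted p below 0.05. "Higher" and "lower" below always mean past that threshold. The median difference over all genes was 0.71 on the log2 scale (quartiles 0.18 and 1.27). Under TMM scaling, which sets the bulk of genes equal between libraries, the median was 0.09, with 2892 genes (44.1%) higher and 2361 (36.0%) lower. All 547 genes that were lower by spike-ins were also lower by TMM, and 2892 were higher under both scalings, while 176 genes were higher by spike-ins and lower by TMM. The direction of a moderate difference thus depends on the scale, and the counts of each list against untreated WT are given below under both. For the 3 libraries of each group, 4769 genes (72.7%) had every spt8∆ value above every untreated value and 842 (12.8%) every spt8∆ value below.

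The size of the difference moved with the level of the gene. Among 1118 features under 10 CPM (counts scaled to a common library total) the median log2 difference was 1.82, among 2779 between 10 and 100 CPM it was 0.78, and among 2667 above 100 CPM it was 0.43. WT with SM, against the same untreated libraries, gave medians of 1.83, 0.59 and 0.27 for these classes. Of 134 genes that were higher by 16-fold or more, 120 lay under 10 CPM. Of the 120, 67 overlap a feature on the opposite strand over 50% or more of their length. For the 371 low features with such an overlap, the median level was 0.487% of the partner's in untreated WT, 2.68% in WT with SM and 2.00% in spt8∆. The strand counted is not given in the sources used, and the part of opposite-strand reads in these rises was not tested. Genes named below have a mean of 10 CPM or more over the 6 libraries together, unless they belong to a list or a low level is given.

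**Figure D1:**
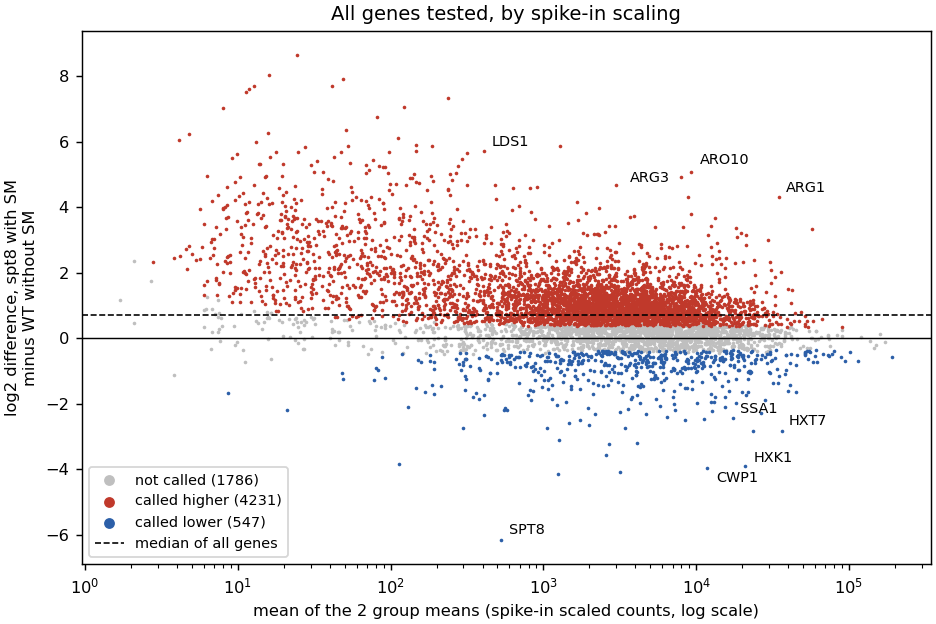
Difference between spt8∆ with SM and untreated WT (log2, spike-in scaling, vertical axis) against the mean of both group means of each gene (scaled counts, log axis), 1 point per gene tested, coloured by call. The cloud lies above 0, with a median of 0.71, and SPT8 stands apart at -6.15.

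SPT8 itself (YLR055C, chromosome XII, 251272 to 253080) was almost without counts in the strain labelled as lacking it. Untreated WT held 1439, 979 and 1357 raw counts and the spt8∆ libraries 16, 17 and 11, a log2 difference of -6.15 (SE 0.26). On one side of SPT8 lies OSW2, a spore wall gene 293 bases away. It had 152, 112 and 127 scaled counts in untreated WT, 758, 930.2 and 751 in WT with SM, and 1651, 1763 and 1491 in spt8∆. OSW2 therefore lay above both WT groups, by 3.65 (SE 0.21) against untreated WT and by 1.01 against WT with SM (edgeR, BH-adjusted p = 0.000136). It borders the replaced gene, and the part of the marker in its level was not tested. ERG3, an ergosterol enzyme 780 bases away on the other side, had overlapping values in the 2 groups, with a log2 difference of -0.0037 (SE 0.17). Among the other named regulators, GCN4 held 19274, 19114 and 18529 scaled counts untreated and 32722, 36332 and 36454 in spt8∆, a difference of 0.89 (SE 0.16). GCN5 was 1.23 (SE 0.18) higher, and SPT3 0.59 (SE 0.19) higher by spike-ins but at -0.03 by TMM. Over the 20 SAGA subunit genes, 14 were higher and 1, SPT8, was lower, with a median of 0.89 and 11 higher and 5 lower by TMM. The largest rises there were SGF11 of the deubiquitinase module (1.86, SE 0.19) and the core subunit SPT20 (2.84-fold, SE 0.20 in log2). Of 17 genes of TFIID and TBP regulation, 11 were higher and 0 lower (median 0.72), led by the TFIID subunit TAF3 at 1.65 (SE 0.18), with 7 higher and 5 lower by TMM. Over all genes tested 64.5% were higher (median 0.71), or 44.1% by TMM. The TFIID list thus moved as all genes did, and the SAGA list little more.

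Genes that Gcn4 is known to activate reached high levels in spt8∆ with SM. All 17 genes of a panel of known Gcn4 targets were higher than in untreated WT, with a median of 2.75, and all 17 were also higher by TMM. ARG3, the ornithine carbamoyltransferase of arginine synthesis, had 583, 439.8 and 498 scaled counts in untreated WT and 14015, 16423 and 15458 in spt8∆. This is 30.2-fold, or 4.91 on the log2 scale (SE 0.20; edgeR, BH-adjusted p = 1.36e-21). For ARG1, the argininosuccinate synthetase gene, scaled counts went from 3634, 3036 and 3456 to 62264, 68272 and 67716, a log2 difference of 4.29 (SE 0.18). The untreated and spt8∆ libraries did not overlap at either gene. All 10 arginine synthesis genes were higher by spike-ins and by TMM (median 3.12 by spike-ins), the mitochondrial ornithine carrier ORT1 among them at 3.16 (SE 0.19). STR3, a cystathionine beta-lyase of methionine synthesis, showed 235, 229 and 206 untreated and 5752, 6009.5 and 5458 in spt8∆, which is 25.7-fold (log2 4.68, SE 0.24).

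The promoters of ARG3 and STR3 are shown because these were the largest rises in the arginine and sulfur lists. Each window covers the 300 bases from 400 to 101 bases before the coding start, from the R64 reference genome (the sacCer3 assembly), 5′ to 3′ on the strand of the gene. Capitals mark the Gcn4 motif TGACTCA and TATA boxes, for which 8 octamers were searched on both strands (TATAAAAA, TATAAAAG, TATAAATA, TATAAATG, TATATAAA, TATATAAG, TATATATA and TATATATG).
ARG3 (chrX:268399-268698, + strand): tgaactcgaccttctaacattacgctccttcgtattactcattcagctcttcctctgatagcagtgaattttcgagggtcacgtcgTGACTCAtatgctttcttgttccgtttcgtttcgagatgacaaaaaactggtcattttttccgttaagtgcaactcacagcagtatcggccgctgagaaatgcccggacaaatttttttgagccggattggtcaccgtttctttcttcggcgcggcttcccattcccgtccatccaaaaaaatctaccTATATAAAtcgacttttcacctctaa
STR3 (chrVII:156113-156412, - strand): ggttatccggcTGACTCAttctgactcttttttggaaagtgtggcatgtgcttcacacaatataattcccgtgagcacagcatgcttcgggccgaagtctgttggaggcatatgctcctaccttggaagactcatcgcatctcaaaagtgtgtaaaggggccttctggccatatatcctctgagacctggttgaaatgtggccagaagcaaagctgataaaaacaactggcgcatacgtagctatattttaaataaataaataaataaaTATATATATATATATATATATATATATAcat
In ARG3 the Gcn4 motif spans 314 to 308 bases before the start and the TATA octamer 126 to 119. In STR3 the motif lies farther out, at 389 to 383, and a long TA run between 131 and 104 holds 11 overlapping octamers. The ARG3 window overlaps the neighbouring coding feature YJL089W. Of 5978 windows of the same length in the genome 2.88% hold TGACTCA, against 8 of 10 arginine windows (80.0%), 4 of 6 histidine windows (66.7%), 6 of 10 branched-chain windows (60.0%) and 8 of 22 sulfur windows (36.4%). A match describes the letters of the window only.

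The other amino acid pathways differed in how far they rose. Over all genes 64.5% were higher and 8.33% lower, or 44.1% and 36.0% by TMM. All 6 histidine genes were higher (median 1.96; also 6 by TMM), led by HIS4 at 2.83 (SE 0.17), a trifunctional enzyme, and HIS5 at 2.79. All 9 lysine genes were higher (median 1.71), with LYS20, the homocitrate synthase, at 2.75, but by TMM 7 were higher and 1 lower. In the aromatic pathway 11 of 12 were higher (median 1.24), with TRP3 at 2.25, and 10 were higher and 1 lower by TMM. Branched-chain synthesis, the pathway that SM blocks, moved less. There 8 of 10 genes were higher and 0 lower, and by TMM 4 were higher and 4 lower. The median of 0.52 lies below the 0.71 of all genes. However, 9 of the 10 lie above 100 CPM, where the median of all features was 0.43. Its largest members were LEU9 (1.81, SE 0.18) and LEU4 (1.49), both isopropylmalate synthases, while the SM target itself, ILV2, was 1.16 (SE 0.17) higher. Of 22 sulfur and methionine genes 17 were higher and 4 lower (median 1.68; 15 and 6 by TMM). The lower ones include the S-adenosylmethionine synthetases SAM1 and SAM2, at -1.70 and -1.80. Of 12 serine, glycine and threonine genes 8 were higher and 0 lower (median 0.40), and 5 were higher without any single one of the 6 libraries, while by TMM 4 were higher and 7 lower. The glutamate, glutamine, asparagine and proline list of 9 split as well, with 6 higher and 2 lower, and 4 and 3 by TMM. Its largest difference was the glutamate dehydrogenase GDH1, which had 6639.7, 6777 and 6964 scaled counts untreated and 1706, 1691 and 1766 in spt8∆ (log2 -1.98, SE 0.18). Of 17 regulators of these pathways 15 were higher and 1, ARG82, lower (median 1.39; 15 and 2 by TMM), with ARG80 at 2.44 and the lysine pathway activator LYS14 at 2.30.

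WT with SM gives the level these genes reach with Spt8 present. It shares the untreated libraries with the comparison above, so the differences from untreated WT are set side by side without a test between them. The median for the arginine list was 3.01 in WT and 3.12 in spt8∆, for histidine 1.80 and 1.96, for lysine 1.52 and 1.71, and for the Gcn4 panel 2.57 and 2.75. The median of all genes differed too, at 0.54 in WT and 0.71 in spt8∆. Relative to it the arginine list was at 2.47 in WT and 2.41 in spt8∆, and the Gcn4 panel at 2.04 in both. The direct test of spt8∆ against WT, both with SM, called 431 genes higher (6.57%) and 366 lower (5.58%). By TMM, where the spread between replicates is smaller, it called 1570 higher (23.9%) and 1382 lower (21.1%). In the Gcn4 panel it called 0 higher and 1 lower of 17, or 1 and 5 by TMM, and in the arginine list 0 higher and 2 lower of 10, or 0 and 3 by TMM. For ARG1 that difference was 0.16 (edgeR, BH-adjusted p = 0.528), with 58635, 61942 and 56485 scaled counts in WT with SM. ARG3 stopped lower than in WT with SM, where it had 22167, 22914 and 20340.1, by -0.51 on the log2 scale (edgeR, BH-adjusted p = 0.0425). STR3 had 12668, 13454 and 11469.8 there, more than every spt8∆ library, a difference of -1.13 (edgeR, BH-adjusted p = 0.00014). The arginine permease ALP1 (-0.66) and DPA10 (-0.88) were likewise lower than in WT with SM while remaining higher than in untreated WT, by 1.83 and 4.02. Of 16 amino acid permeases 10 were higher and 2 lower than untreated WT, or 1 lower without untreated replicate 1, with 6 higher and 7 lower by TMM. These counts lie near the shares over all genes, 64.5% higher and 8.33% lower, or 44.1% and 36.0% by TMM. Against WT with SM 5 of the 16 permeases were lower and 0 higher, or 10 and 0 by TMM.

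A few genes, SER3 and SUL2 of these pathways among them, went above both WT groups. SER3, phosphoglycerate dehydrogenase of serine synthesis, had 3945, 3766 and 3798 scaled counts in untreated WT, 13863, 15384 and 12091 in WT with SM and 31893, 37129 and 36689 in spt8∆. The 3 groups are stepped without overlap, and spt8∆ lay 1.35 above WT with SM (edgeR, BH-adjusted p = 3.41e-07). The sulfate permease SUL2 had 509.7, 461 and 499.7, then 2362, 2439 and 2120.3, then 4677, 4577 and 4533, a difference of 0.99 from WT with SM (edgeR, BH-adjusted p = 0.000133). CIT2, the peroxisomal citrate synthase, was 3.37 (SE 0.19) above untreated WT and 0.86 above WT with SM. SRD1 and CSS1 behaved in the same way, 2.12 and 2.59 above untreated WT and 1.15 above WT with SM in each case. ZPS1 differed from these in its spread. Its untreated values were 2273, 3059 and 6030.4 and those of WT with SM 6268, 2741 and 5147, while all spt8∆ values lay between 13469 and 14608. The SE of its difference of 1.88 was 0.37.

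The 10 largest rises among genes with a name and 10 CPM or more include several outside the amino acid pathways proper. LDS1, a gene of the spore wall, had 18.1, 18 and 9.61 scaled counts untreated and 631, 878 and 895 in spt8∆ (log2 5.71, SE 0.27). ARO10, a decarboxylase that acts on aromatic and branched keto acids, rose from 481, 547 and 561 to 16802, 18727 and 18392 (5.08, SE 0.22). SNO1, of vitamin B6 synthesis, rose from 58.9, 73.1 and 84.1 to 1820.2, 1655 and 1790.3 (4.61, SE 0.21), and its neighbour SNZ1 by 3.97. RTA1, DTR1, ARO5 and DPA10 complete the group, with differences between 4.02 and 4.59. The rule that chose them asked for groups without overlap and for a mean of 10 CPM or more over the 6 libraries together. A gene almost silent in untreated WT can pass it through its spt8∆ counts, as LDS1 did at a mean of 10.2 CPM. The size of these rises and the lack of overlap are therefore part of the selection. Of their 10 promoter windows 6 (60.0%) hold TGACTCA, against 2.88% of all windows, which describes this selected set only. In WT with SM these genes were also far above the untreated level, LDS1 by 5.96 and ARO10 by 5.18.

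**Figure D2:**
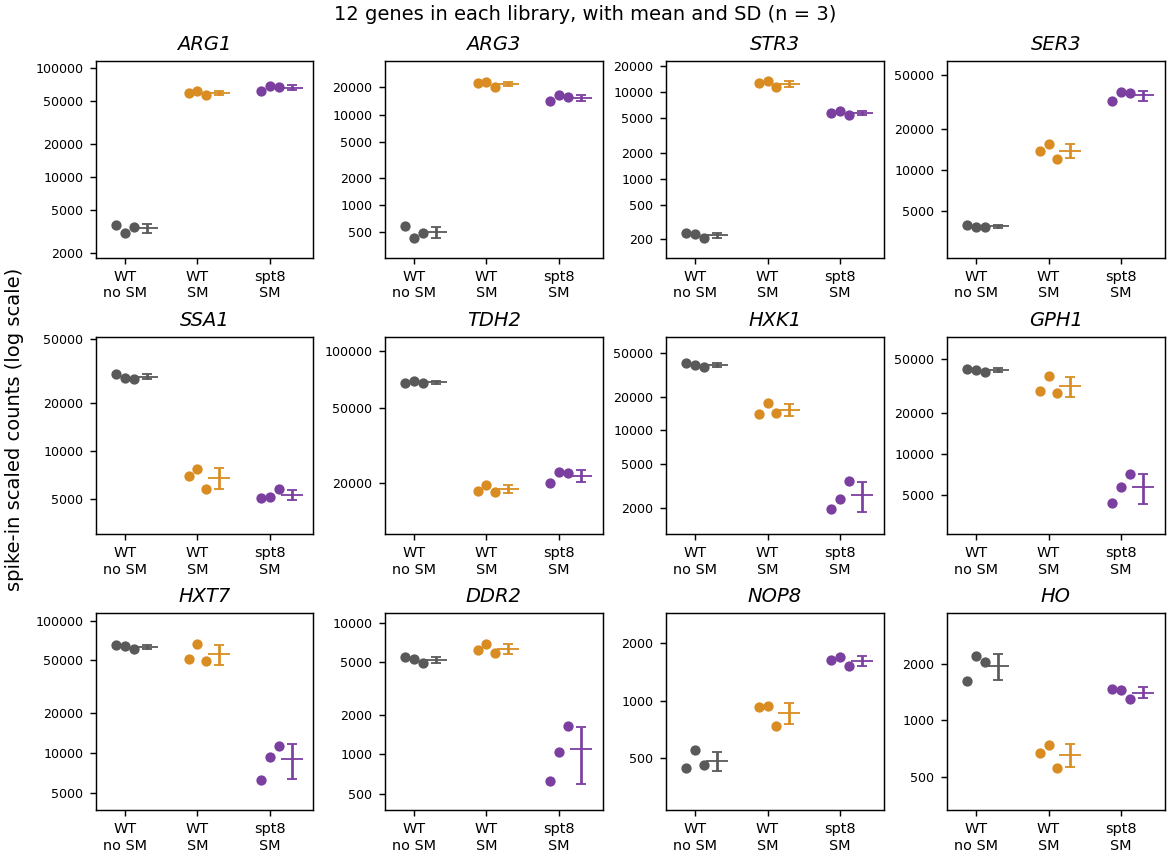
Scaled counts (log axis) of 12 genes in each library of untreated WT, WT with SM and spt8∆ with SM, 1 point per library, with the group mean and SD beside them. ARG1, ARG3 and STR3 lie far above the untreated level in both SM groups, HXK1 and HXT7 lie lowest in spt8∆, and SSA1 and TDH2 are low in both SM groups.

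Genes of the general stress response lay below the untreated level. These genes are activated by the transcription factors Msn2 and Msn4 when cells are stressed or short of glucose, and many encode enzymes of carbohydrate storage. Of 20 known Msn2/4 targets 18 were lower and 0 higher in spt8∆ with SM (median -1.59), and all 20 were lower by TMM. Among all genes 8.33% were lower, or 36.0% by TMM. HXK1, a hexokinase, held 40895, 38633 and 37655 scaled counts in untreated WT, 14006, 17670.0 and 14489 in WT with SM, and 1943, 2405 and 3475 in spt8∆. It lay far below untreated WT (log2 -3.91, SE 0.22; edgeR, BH-adjusted p = 8.51e-18) and lower than WT with SM by -2.56 on the log2 scale (adjusted p = 2.21e-11). TKL2, a transketolase, had 6191, 4323 and 3787 untreated, 2358, 3034 and 1687 in WT with SM and 373, 401 and 429 in spt8∆ (-3.57, SE 0.25). For both genes the spt8∆ libraries lay below every WT library of either kind. SOL4 of the pentose phosphate pathway was lower by -3.24 (SE 0.23). DDR2, a stress gene of unknown biochemical function, was not low in WT with SM. It had 5469, 5310.4 and 4921 scaled counts untreated, 6149, 6933 and 5866 in WT with SM, and 629.9, 1037 and 1638 in spt8∆.

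Some storage carbohydrate and sugar uptake genes were also lower, while others were higher. In WT with SM 5 glycogen and trehalose genes were higher and 2 lower than untreated (median 0.08), and 5 hexose transport genes were higher and 3 lower (median 0.12). In spt8∆ with SM 8.33% of all genes were lower and 64.5% higher than untreated, or 36.0% and 44.1% by TMM. Of 20 glycogen and trehalose genes 10 were lower and 3 higher (median -0.38), and 17 were lower and 3 higher by TMM. GPH1, glycogen phosphorylase, held 42549, 41502 and 39808 untreated, 29167, 37584 and 28195 in WT with SM and 4350.1, 5759 and 7204 in spt8∆ (-2.84, SE 0.21). GAC1, a regulatory subunit of a glycogen phosphatase, was lower by -3.20 (SE 0.25), and PGM2, phosphoglucomutase, by -2.47. Of 12 hexose transport genes 6 were lower and 4 higher (median -0.57; 8 and 4 by TMM). HXT7, a high-affinity glucose transporter, had 65004, 64724 and 61127 untreated, 51227, 67042 and 49666 in WT with SM, and 6183, 9353 and 11357 in spt8∆. The 2 WT groups overlapped at HXT7, with a difference of -0.18, whereas spt8∆ was -2.83 (SE 0.20) from untreated WT. HXT6 is a near-identical copy of HXT7, and the rule for counting reads shared by copies was not stated. The higher members, HXT8, HXT10, GAL2 and RGT2, are led by GAL2 at 2.06, whose untreated values were 69.1, 71.2 and 64.9.

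The test against WT with SM called 17 of 20 Msn2/4 targets lower and 0 higher (median -1.26), 10 of 20 glycogen and trehalose genes lower and 0 higher, and 6 of 12 hexose transport genes lower and 0 higher, beside 5.58% lower over all genes. By TMM the lower counts were 20, 15 and 8, with 0, 2 and 0 higher, beside 21.1% lower over all genes. In WT the response to SM alone gave 10 lower and 2 higher Msn2/4 targets, with a median of -0.42, where 7.57% of all genes were lower and 55.7% higher. The spt3∆ strain with SM was also low at 4 of the genes described above. Its mean scaled counts were 1052.5 ± 186 for HXK1, 309 ± 26.2 for TKL2, 2680.2 ± 354 for GPH1 and 8136 ± 1415 for HXT7 (SD, n = 3).

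The promoters of HXK1 and TKL2 are shown as those of the stress genes with the largest differences. Capitals mark the stress element AGGGG, which Msn2 and Msn4 recognise, and the TATA octamers listed above.
HXK1 (chrVI:255150-255449, - strand): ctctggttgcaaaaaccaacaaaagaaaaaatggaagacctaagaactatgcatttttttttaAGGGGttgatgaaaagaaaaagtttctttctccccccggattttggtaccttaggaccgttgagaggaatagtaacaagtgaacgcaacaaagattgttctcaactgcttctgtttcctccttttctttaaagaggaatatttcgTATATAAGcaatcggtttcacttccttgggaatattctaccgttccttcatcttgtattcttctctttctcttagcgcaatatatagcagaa
TKL2 (chrII:476538-476837, - strand): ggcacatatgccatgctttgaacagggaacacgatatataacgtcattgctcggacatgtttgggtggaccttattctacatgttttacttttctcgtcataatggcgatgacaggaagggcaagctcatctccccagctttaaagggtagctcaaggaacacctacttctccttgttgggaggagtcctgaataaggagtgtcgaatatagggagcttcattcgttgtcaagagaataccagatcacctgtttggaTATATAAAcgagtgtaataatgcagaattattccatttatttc
The HXK1 window holds AGGGG at 337 to 333 bases before the coding start and a TATA octamer at 192 to 185. The TKL2 window holds a TATA octamer at 143 to 136 and no AGGGG on either strand. Over the whole list 18 of 20 Msn2/4 windows (90.0%) hold AGGGG, against 23.6% of all windows, and 12 of 20 (60.0%) hold a TATA octamer, against 37.4%. The list was compiled from known targets of these factors. Of the glycogen and trehalose windows 16 of 20 (80.0%) hold AGGGG and 15 of 20 a TATA octamer, and of the hexose transport windows 5 of 12 (41.7%) hold AGGGG and 9 of 12 a TATA octamer. TATA octamers were also found in lists with higher genes, in 13 of 17 Gcn4 panel windows (76.5%) and 15 of 22 sulfur windows (68.2%).

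**Figure D3:**
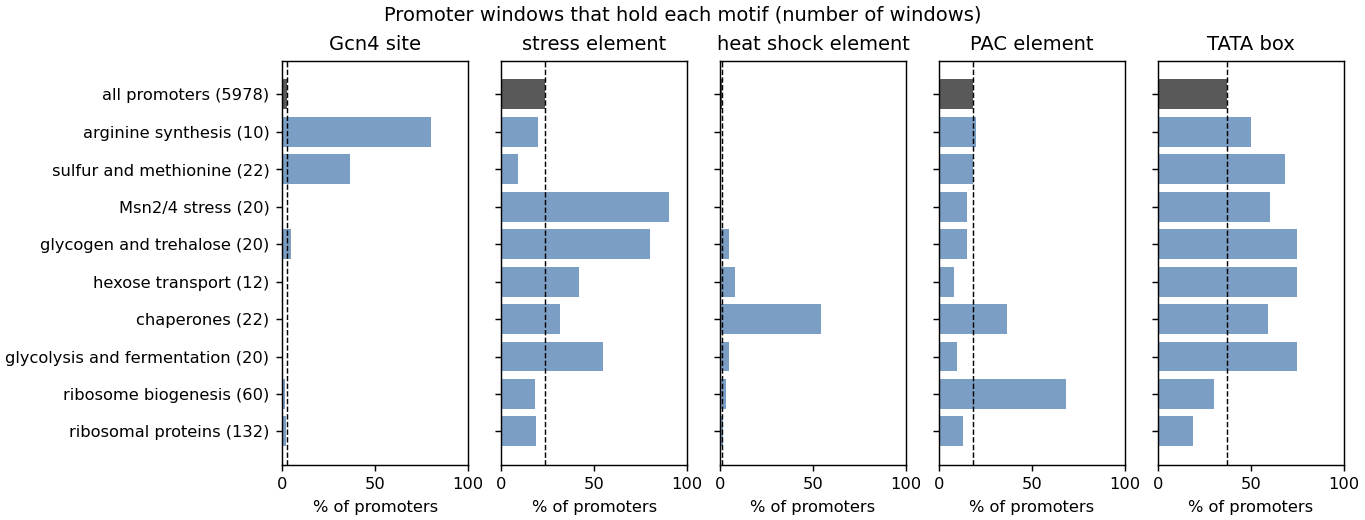
Share of promoter windows (percent, horizontal axis) that hold the Gcn4, AGGGG, PAC, heat shock or TATA motif in selected gene lists, with the share over all 5978 windows as the reference. The Gcn4 motif is in 80.0% of arginine windows against 2.88% of all, and AGGGG in 90.0% of Msn2/4 windows against 23.6%.

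Chaperone and glycolytic genes were low in spt8∆, and 1 of 22 and 3 of 20 were called different from WT with SM by spike-ins. By spike-ins that test called 6.57% of all genes higher and 5.58% lower. By TMM it called 5 chaperones higher and 7 lower, and 1 glycolytic gene higher and 8 lower, beside 23.9% and 21.1% of all genes. The chaperone counts by TMM lie near those shares. Of 22 chaperones 18 were lower than untreated WT and 1, SSA3, was higher, with a median of -1.01 and 21 lower and 1 higher by TMM. Against untreated WT 8.33% of all genes were lower and 64.5% higher, or 36.0% and 44.1% by TMM. SSA1, a major cytosolic Hsp70, had 30378, 28749.6 and 28465 scaled counts untreated, 6967, 7732 and 5778 in WT with SM and 5094, 5205 and 5797 in spt8∆. It was 5.44-fold lower than untreated WT (log2 -2.44, SE 0.21), and the SM groups differed by -0.35 (edgeR, BH-adjusted p = 0.264), with ranges that overlap between 5778 and 5797. The near-identical SSA2 was lower by -2.30 and the Hsp90 cochaperone STI1 by -1.98. Against WT with SM 1 of the 22 was lower, HSP26, a small heat shock protein that is also on the Msn2/4 list, by -1.53 (edgeR, BH-adjusted p = 5.52e-06). The SSA1 window is shown because 12 of 22 chaperone windows (54.5%) hold the heat shock element GAANNTTCNNGAA, against 1.1% of all windows. Capitals mark its matches on either strand and the TATA octamer.
SSA1 (chrI:141532-141831, - strand): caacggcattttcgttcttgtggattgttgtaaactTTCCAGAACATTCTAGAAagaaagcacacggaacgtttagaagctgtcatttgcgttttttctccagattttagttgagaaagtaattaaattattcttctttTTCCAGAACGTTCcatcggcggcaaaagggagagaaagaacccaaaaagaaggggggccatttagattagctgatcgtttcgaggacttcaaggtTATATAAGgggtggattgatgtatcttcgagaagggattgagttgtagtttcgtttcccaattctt
It holds 3 matches, at 364 to 352, 359 to 347 and 261 to 249 bases before the start, the first pair overlapping, and a TATA octamer at 166 to 159.

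Of 20 glycolytic and fermentation genes 17 were lower and 1 higher than untreated WT (median -0.67), with 19 lower and 0 higher by TMM. The share of all genes that were lower was 8.33%, or 36.0% by TMM. TDH2, a glyceraldehyde-3-phosphate dehydrogenase, had 67420.5, 69896 and 67758 untreated, 18013, 19544 and 17905 in WT with SM, and 19957, 22964 and 22499 in spt8∆ (-1.65, SE 0.16). The alcohol dehydrogenase ADH1 was lower by -1.61. TDH1, a close copy of TDH2, was different: 47919, 45197 and 40892 untreated, 33463, 35985 and 30541 in WT with SM and 10327, 11963 and 13980.5 in spt8∆, with a difference of -1.46 between the SM groups (edgeR, BH-adjusted p = 5.47e-07). Against WT with SM 3 of the 20 were lower, HXK1 and TDH1 among them.

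Mitochondrial and protein turnover genes stood below the all-gene median, with calls that depended on the scale. Against untreated WT 8.33% of all genes were lower and 64.5% higher, or 36.0% and 44.1% by TMM. Of 16 citrate cycle genes 8 were lower and 1, CIT2, higher (median -0.49; 15 and 1 by TMM), led by the malate dehydrogenase MDH1, with 11700.2, 10713 and 10293 untreated and 1839.6, 2202 and 2116 in spt8∆ (-2.41, SE 0.20). Of 32 respiratory chain genes 16 were lower and 1 higher (median -0.37), and 31 were lower by TMM. ATP3, a subunit of the mitochondrial ATP synthase, was lower by -2.03 (SE 0.19). Of 19 antioxidant enzymes 8 were lower and 1 higher (median -0.28), and by TMM 18 were lower. The lower ones include the catalase CTT1 (-1.62) and SOD1, the copper-zinc superoxide dismutase (-1.46). The higher one was CTA1, the peroxisomal catalase, with 304, 274 and 349 untreated and 1111, 1429 and 1335 in spt8∆. Of 33 proteasome genes 13 were lower and 2 higher (median -0.36), or 1 higher without any single library, and 32 were lower by TMM. The transcription factor RPN4, which activates proteasome genes and is counted in this list, was 1.20 (SE 0.19) higher. Against WT with SM, TMM called 13 citrate cycle genes lower and 1 higher, and 29 respiratory chain genes lower and 0 higher. For antioxidant enzymes 9 were lower and 1 higher, and for proteasome genes 4 and 4, beside 21.1% and 23.9% of all genes. By spike-ins 3, 4, 4 and 0 were lower and 1, 0, 0 and 0 higher, beside 5.58% and 6.57% of all genes.

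Genes for making ribosomes had the largest share of members above WT with SM among the 41 lists. Of 60 ribosome biogenesis genes 46 were higher and 0 lower than untreated WT, with a median of 0.75 close to the all-gene median, and by TMM 26 were higher and 13 lower. Against WT with SM 36 of 60 were higher and 0 lower (median 0.66), beside 6.57% higher over all genes, and 51 were higher by TMM, where 23.9% of all genes were. In WT, SM alone gave 17 higher and 6 lower, with a median of 0.15. NOP8, a factor of large-subunit assembly, had 444, 546 and 459 scaled counts untreated, 921, 935 and 739 in WT with SM and 1633, 1696 and 1515 in spt8∆ (1.74, SE 0.20). ESF1, which acts in processing of small-subunit rRNA, had 1636, 1852 and 1634 untreated, 1036, 1239.9 and 802 in WT with SM, and 2579, 2662 and 2377 in spt8∆. Its difference from untreated WT was 0.57 (SE 0.20) by spike-ins and -0.04 by TMM, and from WT with SM 1.31 (edgeR, BH-adjusted p = 8.53e-06). The PAC motif GATGAG, common before ribosome biogenesis genes, is in 41 of 60 of their windows (68.3%) and in 18.4% of all.

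A list of 20 genes holds subunits of RNA polymerases I and III and RRN3, an initiation factor of polymerase I. Of these 20 genes 16 were higher and 0 lower (median 0.71), with 7 and 4 by TMM. RET1, a large subunit of polymerase III, led them at 1.29 (SE 0.19). Their median matched the 0.71 of all genes, of which 64.5% were higher. Of 36 tRNA synthetases and translation factors 11 were higher and 3 lower (median 0.23), with 7 higher without untreated replicate 1, and by TMM 2 were higher and 27 lower. For the ribosomal proteins the direction depended on the scale. By spike-ins 44 of 132 were higher and 0 lower (median 0.26), and by TMM 5 were higher and 111 lower. The count of 44 became 22, 22 and 23 without untreated replicates 1, 2 and 3, and 19 and 25 without spt8∆ replicates 2 and 3. Ribosomal protein genes exist as close pairs, and the members that rose most, RPS9A (1.23), RPS14B (1.10), RPL22B (1.03) and RPL7B (1.02), each have such a copy.

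**Figure D4:**
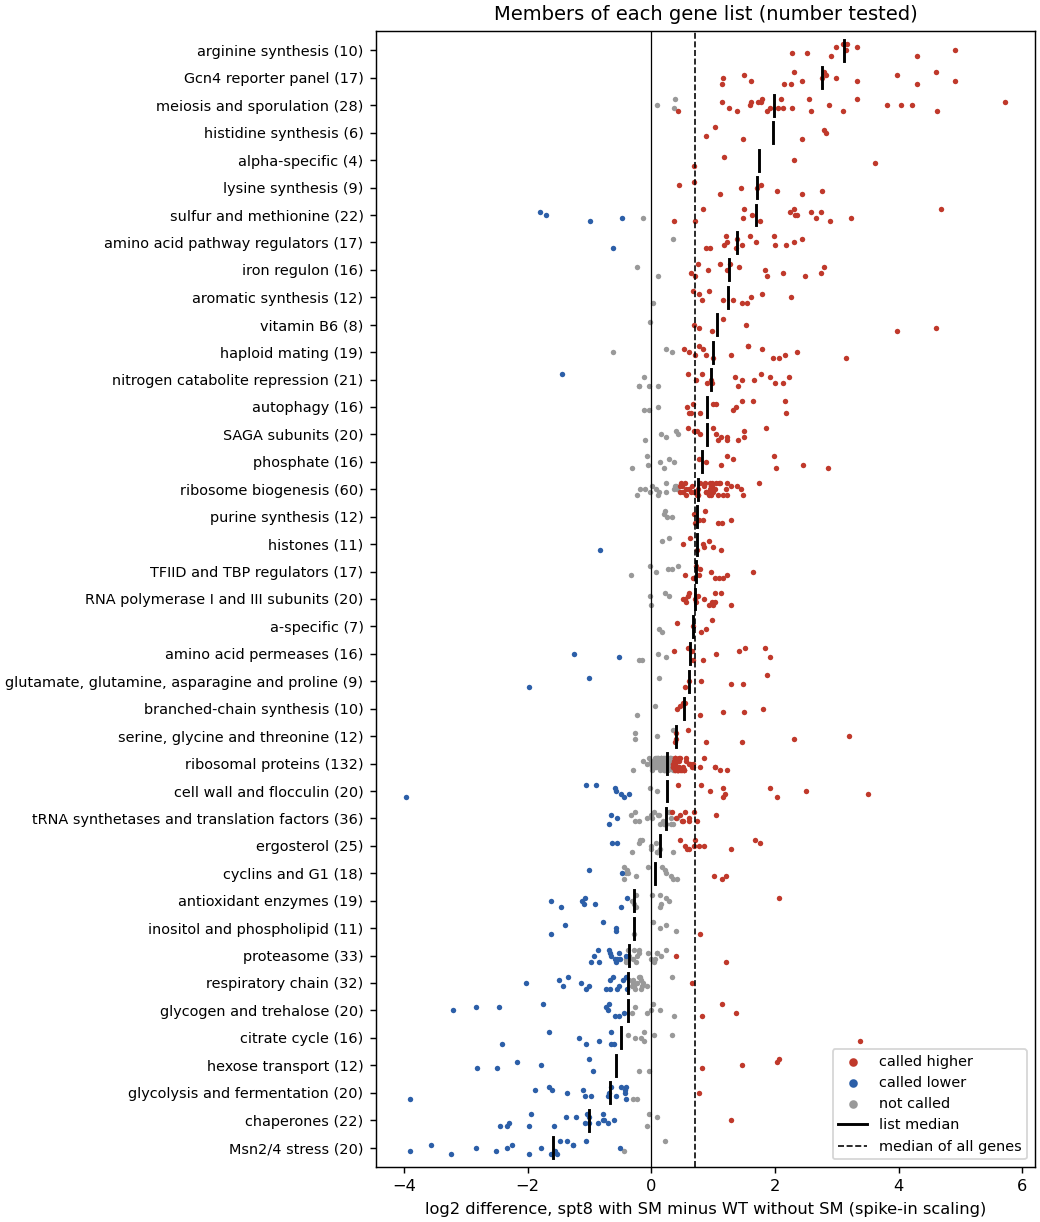
Differences between spt8∆ with SM and untreated WT (log2, spike-in scaling) for every gene of the 41 lists, 1 point per gene, with list medians as bars and the all-gene median of 0.71 as a dashed line. The arginine genes lie between 2.27 and 4.91, and the Msn2/4 targets between -3.91 and 0.22. SPT8 at -6.15, of the SAGA list, lies beyond the axis and is not drawn.

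**Figure D5:**
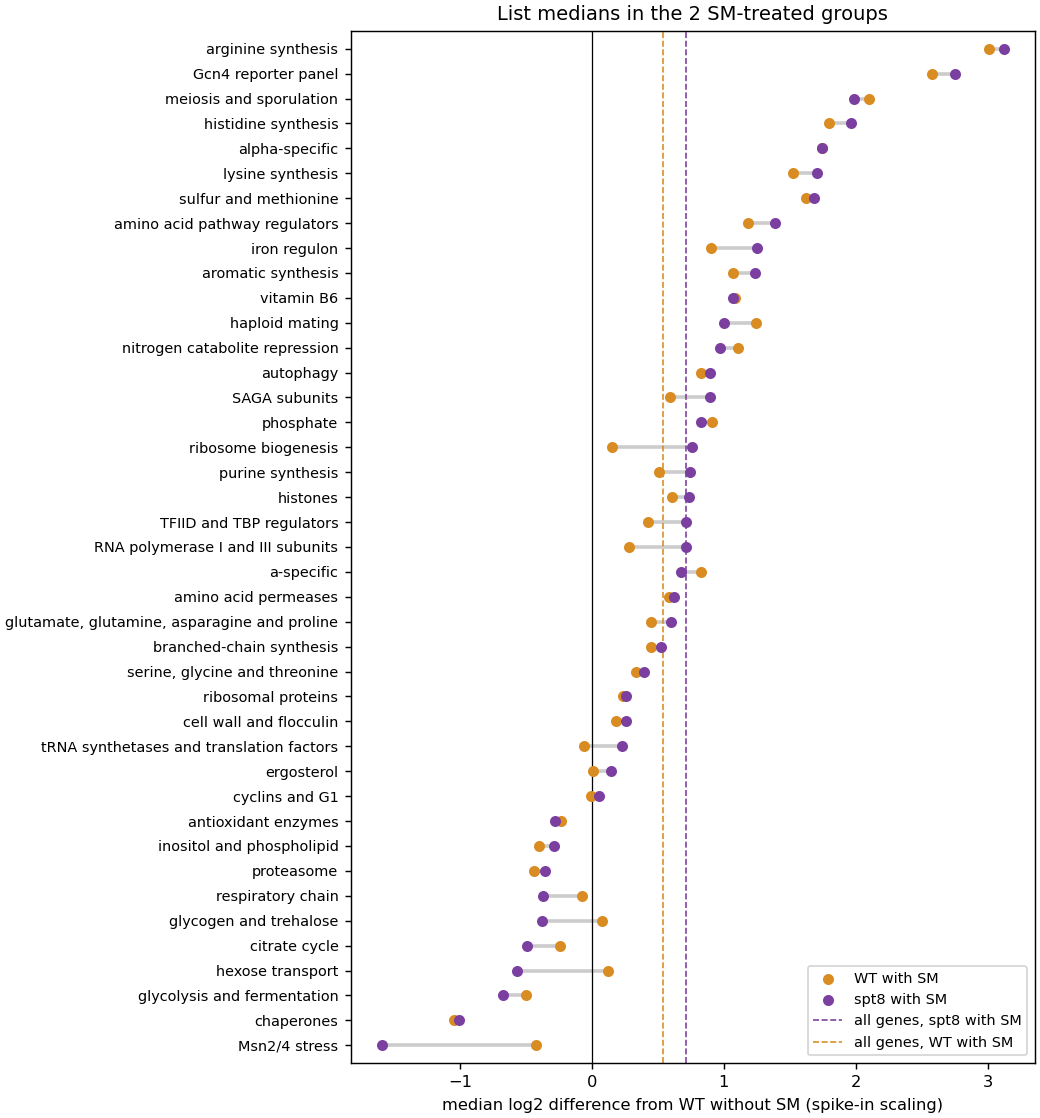
Median log2 difference of each list from untreated WT, for WT with SM and for spt8∆ with SM, which share the untreated libraries, with the all-gene medians of 0.54 and 0.71 as dashed lines. The amino acid lists are at similar heights in both, while the Msn2/4 list is at -0.42 in WT and -1.59 in spt8∆.

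Most mating and meiotic genes were higher in spt8∆ with SM, and many of the meiotic ones are low-level genes. Over all genes 64.5% were higher, or 44.1% by TMM. Of 28 meiosis and sporulation genes 25 were higher and 0 lower (median 1.99; 24 and 1 by TMM), and 15 of the 28 lie under 10 CPM, where the median of all features is 1.82. In WT with SM 27 of them were higher, with a median of 2.10. MEK1, a meiotic kinase, had 18.8, 14.2 and 16 scaled counts untreated, 201, 230.1 and 182 in WT with SM and 235, 295 and 288 in spt8∆. Of 19 haploid mating genes 16 were higher and 0 lower (median 1.00; 12 and 3 by TMM), led by PRM4, a pheromone-regulated gene, at 3.15 (SE 0.22). The strains are labelled mating type a, and the 7 a-specific genes were present in every library, with summed scaled counts of 90094 to 102709 untreated, 155546 to 182738 in WT with SM and 133725 to 156421 in spt8∆. All 4 genes of the alpha-specific list were higher (3 by TMM), and their summed counts ran from 4467 to 4709 untreated, 9817 to 11863 in WT with SM and 10906 to 12568 in spt8∆. Among them MF(ALPHA)2, an alpha pheromone gene, had 14.1, 20.9 and 16 scaled counts untreated and 196, 212 and 219 in spt8∆. The a-specific genes were 5 higher and 0 lower of 7 by spike-ins and 3 and 3 by TMM. The alpha regulator gene at the mating locus, MATALPHA1, held 0 to 4 raw counts in the untreated and 2 to 12 in the spt8∆ libraries. MATALPHA2, from the same locus, held 329, 194 and 260 raw counts untreated, 475, 485 and 415 in WT with SM and 594, 532 and 483 in spt8∆. Of 8 meiotic genes used as diploid markers 7 were higher, with sums of 2510 to 2608 untreated, 7160 to 9105 in WT with SM and 8120 to 10289 in spt8∆. The part of other cell types in the differences above was not tested.

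Cell surface genes moved in both directions. Of 20 cell wall and flocculin genes 10 were higher and 8 lower (7 and 10 by TMM). Among all genes 64.5% were higher and 8.33% lower, or 44.1% and 36.0% by TMM, so the split by TMM lies near that of all genes. CWP1, a cell wall mannoprotein, was the largest fall among genes with a name and 10 CPM or more, SPT8 aside, from 22394, 22406 and 21940.2 untreated to 5417, 6758 and 5513 in WT with SM and 1348, 1384 and 1536 in spt8∆. The groups were stepped without overlap, at -3.97 (SE 0.19) from untreated WT and -2.05 from WT with SM (edgeR, BH-adjusted p = 3.29e-11). DAN1, an anaerobic cell wall gene, was higher by 3.50 from low values of 19.6, 13.3 and 10.4, and the flocculins FLO9 and FLO1, which share sequence, by 2.50 and 2.03. NCA3, FMP48 and EGO4 complete the 10 largest falls, at -3.12, -2.75 and -2.74.

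Nutrient and cell cycle lists varied. Over all genes 64.5% were higher and 8.33% lower by spike-ins (median 0.71), and 44.1% and 36.0% by TMM. The purine, phosphate and histone counts below lie near these shares. Of 16 iron regulon genes 14 were higher and 0 lower (median 1.25; 11 and 2 by TMM), led by the siderophore transporter ENB1, with 2019, 1720.1 and 1944 untreated and 13236, 13209 and 13062 in spt8∆ (2.80, SE 0.19). Of 21 genes under nitrogen catabolite repression 15 were higher and 1, CAR2, lower (median 0.97; 12 and 6 by TMM), with the urea transporter DUR3 at 2.23. Autophagy genes were higher in 13 of 16 cases (median 0.89; 9 higher and 3 lower by TMM), with the kinase ATG1 at 2.17 (SE 0.21). Of 8 vitamin B6 genes 7 were higher and 0 lower (median 1.07; 6 and 1 by TMM), and of 12 purine synthesis genes 8 were higher (median 0.74; 5 higher and 4 lower by TMM). Of 16 phosphate genes 9 were higher and 0 lower (median 0.83; 7 and 7 by TMM), with the phosphatase PHO5 at 2.02. Of 11 inositol and phospholipid genes 5 were lower and 1 higher (9 and 1 by TMM), led by INO1, inositol-3-phosphate synthase, at -1.63 (SE 0.18). Of 25 ergosterol genes 11 were higher and 2 lower (4 and 15 by TMM), with the sterol regulators UPC2 (1.76) and ECM22 (1.68) as the largest. Histone genes were higher in 8 cases and lower in 1 of 11 (5 and 3 by TMM). Of 18 cyclins and G1 genes 3 were higher and 2 lower, or 1 lower without any of untreated replicates 2 and 3 and spt8∆ replicates 1 and 2, and 3 and 15 by TMM. HO, the mating type endonuclease, had 1614, 2199 and 2059 scaled counts untreated, 668, 742 and 554 in WT with SM and 1466, 1457 and 1299.7 in spt8∆. It was lower than untreated WT by -0.48 (edgeR, BH-adjusted p = 0.0415), a call lost in 5 of the 6 fits without 1 library, and higher than WT with SM by 1.10 (adjusted p = 0.000331).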

How the data were processed

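Stranded paired-end libraries depleted of rRNA were made, with spike-ins added to 1.2 µg of total RNA, per the labels. The deposited table holds raw counts per coding feature; per the submitters' processing notes the authors used STAR, SAMtools, DESeq2 and sacCer3, without versions. No source used here names the counting program or strand setting, so these are not given. Size factors were medians of ratios over the 74 of 92 spike-ins seen in every library. edgeR 4.0.16 (R 4.3.3) fitted all 15 libraries in 5 groups, after filterByExpr, with BH adjustment over 6564 genes. The SEs and p-values thus rest on a spread shared with the spt3∆ and gcn5∆ groups. Replicates of gcn5∆ were the least alike. The mean squared difference per gene, relative to counting noise, was 103.5 for its replicates 1 and 3. It was 33.6 for spt8∆ replicates 1 and 3. The 128 yeast features not tested held 0.000821% of counts. TMM and median-of-ratios scaling (DESeq2 1.42.0) and other alternatives are in the closing section. On simulated data, 89.6% of 67 changes of 1.5-fold, 94% of 67 of 2-fold and 100% of 66 of 4-fold were found, among 6562 genes. How far the spread of spike-in scaling between libraries, or a shift of most genes, lowers these shares was not tested. Replicates of a group differed beyond counting noise; their common coefficient of variation was 16.1% by spike-ins and 7.86% by TMM. The main fit did not pair libraries by replicate number. Named genes are the 4 factors SPT8, SPT3, GCN5 and GCN4, the 10 largest rises and falls under the stated filters, up to 4 members of each list, the 6 largest differences each way from WT with SM, and the neighbours of SPT8; other genes named were chosen after their values were seen, and 1 gene that the rule picks is not reported here. The comparison, the lists and the genes were chosen with earlier results of these data known. Promoter windows came from 5998 protein-coding features with the same coordinates in RefSeq R64.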

Additional observations from a re-analysis of the deposited data

Results flagged for a closer look

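Genes deleted in the parent strain gave more counts in a single library than in the others. LEU2 had 70 raw counts in untreated WT replicate 1, against 0 to 6 in the other 14 libraries, and MET17, the gene of the met15∆ allele, had 82, against 0 to 4. URA3, deleted as well, had 7 there and at most 2 elsewhere. Both genes were left out of the named genes, and the source of these counts was not tested.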

How the results depend on the processing

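The scale changed the counts most. With TMM 2361 genes were lower, 1058 were higher and 591 lower by 2-fold or more, and the median was 0.093, against 547, 2344, 184 and 0.71 by spike-ins. With DESeq2's median-of-ratios over yeast genes 2618 were higher and 2571 lower, 982 and 696 by 2-fold or more, and the median was 0.0081. SPT3 (-0.031) and ESF1 (-0.041) changed sign with TMM, and SPT3 (-0.12), ESF1 (-0.13), GCN20 (-0.014), STE2 (-0.026) and MF(ALPHA)1 (-0.019) with median-of-ratios. In a fit of only the 6 libraries compared 4813 genes were higher and 837 lower, and 98 ribosomal protein genes were higher. DESeq2's Wald test with spike-in factors (4260 higher, 566 lower), no filter on low counts (4266 and 550) and abundant spike-ins only (4216 and 557) stayed within 1.5 times. Leaving out each of the 6 libraries gave 3861 to 4203 higher and 436 to 507 lower genes, with medians of 0.66 to 0.76. Deviations from the group means of same-numbered spt8∆ and untreated libraries correlated at -0.121, 0.165 and -0.184 over 5446 genes. Differently numbered pairs ran from -0.127 to 0.216. With 3 libraries per group such values cannot show whether the numbers pair the libraries. A fit with a replicate block called 4102 genes higher and 508 lower. HO lost its call in 5 of the 6 fits without 1 library and with DESeq2, and MF(ALPHA)1 without untreated replicate 2 or spt8∆ replicates 2 or 3; the cause was not tested. Spike-in scaling carries a within-group spread of 0.197 log2 between libraries.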
